A study of Mus musculus with 4 samples.

Results

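The genes described here load and carry peptides on MHC class I molecules, and they were followed through the leukocytes of the mouse pancreas and its draining lymph node. The members were chosen by name from the gene list of the count matrices. They are 10 of 31053 genes: H2-K1, H2-D1, B2m and H2-T23, which form the class I molecules, Tap1, Tap2 and Tapbp, which serve peptide transport and loading, the proteasome subunits Psmb8 and Psmb9, and the transactivator Nlrc5. Their level was read in T, B, NK, macrophage, dendritic and exocrine barcodes, defined by marker genes that include none of the members.

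The libraries were droplet-based single-cell libraries of the 5′ ends of transcripts, in which each RNA molecule is counted by a unique molecular identifier (UMI). There were 4 libraries from female mice described as pre-diabetic, 1 per group. The pancreas control library (Ocabfl/fl) and the pancreas CD4-Cre library (Ocabfl/fl.CD4-Cre) each held CD45+ cells pooled from 4 mice of 12 weeks, sorted by flow cytometry. The lymph node control and CD4-Cre libraries, of the same genotypes, each held CD3 T cells pooled from 5 mice of 8 weeks and selected with magnets. All groups carry floxed alleles of Ocab, now named Pou2af1, a transcriptional coactivator. The CD4-Cre groups add Cre recombinase from the Cd4 promoter, which is active in developing T cells, so that CD8 T cells also descend from cells with Cre. The labels give no mouse strain. With 1 library per group no test between groups was possible, and every interval covers counting error only, not the spread between mice or preparations.

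MHC class I molecules show peptides from inside the cell to CD8 T cells and, as self signals, to NK cells. A heavy chain (H2-K1 or H2-D1 in the classical molecules) pairs with B2m. Proteasomes cut proteins into peptides, interferon replaces their catalytic subunits with Psmb8 and Psmb9, the Tap1 and Tap2 pair pumps the peptides into the endoplasmic reticulum, and Tapbp (tapasin) holds the empty class I molecule there. Nlrc5 acts with factors bound at class I promoters to switch these genes on. H2-T23 encodes Qa-1, a nonclassical molecule seen by the receptor Klrc1 with Klrd1 on NK and CD8 T cells. In autoimmune diabetes, class I recognition by CD8 T cells is a known part of the attack on beta cells.

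In GENCODE M21 (GRCm38), 8 of the 10 genes lie on chromosome 17, in the MHC region. Tap1 (34187553 to 34197225, + strand) and Psmb9 (34181987 to 34187764, - strand) overlap at their starts, and Psmb8 (34197721 to 34201454) and Tap2 (34203527 to 34216321) follow on the + strand. H2-K1 (33996017 to 34000347, - strand) and Tapbp (33915899 to 33929292, + strand) lie on one side of them. H2-D1 (35262730 to 35267499, + strand) and H2-T23 (36029773 to 36032855, - strand) lie on the other side. B2m is on chromosome 2 (122147686 to 122153083, + strand) and Nlrc5 on chromosome 8 (94434356 to 94527272, + strand). All 10 are annotated as protein coding.

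Promoter sequences are shown because those of H2-K1, H2-D1 and B2m hold letters like an element known from class I promoters. RefSeq promoter windows (GRCm38.p6) were matched by symbol for 8 members, all but Tap2 and Nlrc5, and the 250 bases before each start were searched on both strands. The first pattern was TGACG and ATTGG separated by 20 bases of any kind, after the X2 and Y boxes of class I promoters. It was found in 3 of the 8 members and in 30 of 32817 promoter windows (0.0914%). Because the pattern was written after class I promoters, finding it in some of them is not independent support. The matches are printed 5′ to 3′ on the strand of the gene, with the letters that were searched for in capitals. They lie at chr17:34000359-34000388 (- strand), chr17:35262993-35263022 (+ strand) and chr2:122147609-122147638 (+ strand), before the starts given by RefSeq. GENCODE M21 starts H2-D1 further upstream, at 35262730, so there the H2-D1 match lies within the first exon. The RefSeq windows of H2-T23, Tapbp, Psmb8 and Psmb9 likewise lie wholly or partly inside the genes as GENCODE M21 draws them.
H2-K1: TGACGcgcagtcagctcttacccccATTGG
H2-D1: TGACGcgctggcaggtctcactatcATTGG
B2m: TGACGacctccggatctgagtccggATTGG
The second pattern, TTTCNNTTC, is the core of an interferon response element. It was found in H2-K1 and H2-D1 alone among the 8 members searched, and in 6.31% of all windows. The stretch before the H2-K1 start (chr17:34000348-34000522, - strand) shows both patterns in order, again in capitals.
H2-K1 promoter: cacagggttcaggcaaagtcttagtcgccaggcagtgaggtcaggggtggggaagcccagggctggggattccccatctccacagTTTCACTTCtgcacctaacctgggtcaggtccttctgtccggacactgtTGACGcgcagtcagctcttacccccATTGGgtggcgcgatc
ATTGG alone, which is also the end of the first pattern, occurred in 7 of the 8 members and in 33.8% of windows. H2-K1, H2-D1 and B2m already hold it within the first pattern. The windows of Tap1 and Psmb9 share 275 of 300 bases on opposite strands, and their ATTGG matches are the same bases. The 7 are therefore not independent sites. A match in these windows is a description of letters and not a measured site.

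The 4 libraries listed 3059 to 6963 barcodes each, and 2918 to 6626 passed the filters of at least 500 genes and at most 10% mitochondrial UMIs. Marker rules placed 86.4% to 98.6% of these in a class. In the pancreas control library Cd3e was found in 98.3% of T barcodes, Cd79a in 99.9% of B barcodes and Ncr1 in 98.7% of NK barcodes, whereas C1qa was found in 69.3% of macrophage and Flt3 in 76.2% of dendritic barcodes. Pou2af1 in T cells was at 5.13 CPM (UMIs per 1000000 UMIs of the class, with a 95% Poisson interval of 3.68 to 6.96) in the pancreas control library. The pancreas CD4-Cre library had 0.603 (0.276 to 1.14). In lymph node T cells it was 4.59 (3.55 to 5.86) and 0.112 (0.023 to 0.326). B cells of the pancreas held 224 (209 to 239) and 248 (234 to 261). Between 21 and 70 barcode sequences were shared between pairs of libraries, at most 1.31% of the smaller library. The mitochondrial limit was passed by 1.01% of barcodes in the lymph node control library and 9.39% in the other lymph node library.

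As a share of all RNA, H2-K1 and H2-D1 were highest in NK cells and lowest in B cells in both pancreas libraries. H2-K1 in pancreas control stood at 2025 CPM (1935 to 2118) in NK cells, 1813 (1784 to 1843) in T cells, 1764 (1689 to 1842) in dendritic cells, 1260 (1206 to 1315) in macrophages and 1055 (1022 to 1088) in B cells. T and dendritic cells overlapped in their intervals and the other neighbours in this order did not. In pancreas CD4-Cre the values were 2026, 1748, 1426, 1103 and 1028 in the same order of classes, and only macrophages and B cells overlapped. The NK lead over T cells in H2-K1, 1.12-fold in control and 1.16-fold in CD4-Cre, depends on the scaling described with the NK comparison below.

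H2-D1 in pancreas control ran from 4217 (4087 to 4350) in NK cells to 2174 (2127 to 2222) in B cells. T cells (3433), macrophages (3387) and dendritic cells (3570) lay between them, with overlapping intervals between neighbours. In pancreas CD4-Cre the ends were 3914 and 2018. The ratio of H2-K1 to H2-D1 UMIs, compared between classes, was 0.528 (0.518 to 0.539) in T cells, 0.485 (0.467 to 0.504) in B cells and 0.372 in macrophages of the control library, and 0.543, 0.509 and 0.332 in CD4-Cre. Macrophages thus had the lowest ratio of H2-K1 to H2-D1 among the 5 leukocyte classes in both libraries.

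B2m, the shared light chain, was highest in dendritic cells, at 2869 (2773 to 2968) in the control library and 2068 (1989 to 2150) in the CD4-Cre library. It was lowest in B cells, at 1124 (1090 to 1159) and 1027. T cells held 2125 and 1981, so that dendritic and T cells were apart in the control library and overlapped in CD4-Cre. H2-T23 varied little between classes in the control library, with the highest class 1.5 times the lowest, and this ratio was 1.7 in CD4-Cre. It stood at 340 in dendritic cells, 250 in B cells, 232 in T cells, 229 in NK cells and 227 in macrophages of the control library, and only the dendritic value was apart from its neighbour.

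Transport, loading and proteasome genes were highest in dendritic cells in both libraries. Tap1 in pancreas control was 236 (209 to 266) in dendritic cells, 136 (128 to 145) in T cells, 117 (106 to 129) in B cells, 113 (96.9 to 130) in macrophages and 69.0 (53.3 to 88.0) in NK cells. Tap2 was 290 in dendritic cells, 221 in T cells, 147 in NK cells, 131 in macrophages and 130 in B cells. Tapbp was 346 (313 to 381) in dendritic cells and 185 to 211 in the other 4 classes, which overlapped with one another. By CPM, Tap1 was therefore lowest in the class in which H2-K1 and H2-D1 were highest.

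Psmb8 stood at 1344 (1279 to 1412) in dendritic cells against 742 (723 to 761) in T cells, 636 in NK cells, 545 in B cells and 533 in macrophages. Psmb9 was 785 (736 to 838) in dendritic cells, 321 in T cells, 296 in macrophages, 264 in B cells and 209 (181 to 241) in NK cells. In pancreas CD4-Cre the dendritic values were 1302 for Psmb8 and 730 for Psmb9. Nlrc5 was the rarest member. It stood at 46.3 (41.7 to 51.3) in T cells, 39.9 (29.3 to 53.1) in dendritic cells, 30.8 in NK cells, 17.6 in macrophages and 10.3 (7.27 to 14.1) in B cells of the control library. All neighbours in this order overlapped, though the ends did not.

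**Figure D1:**
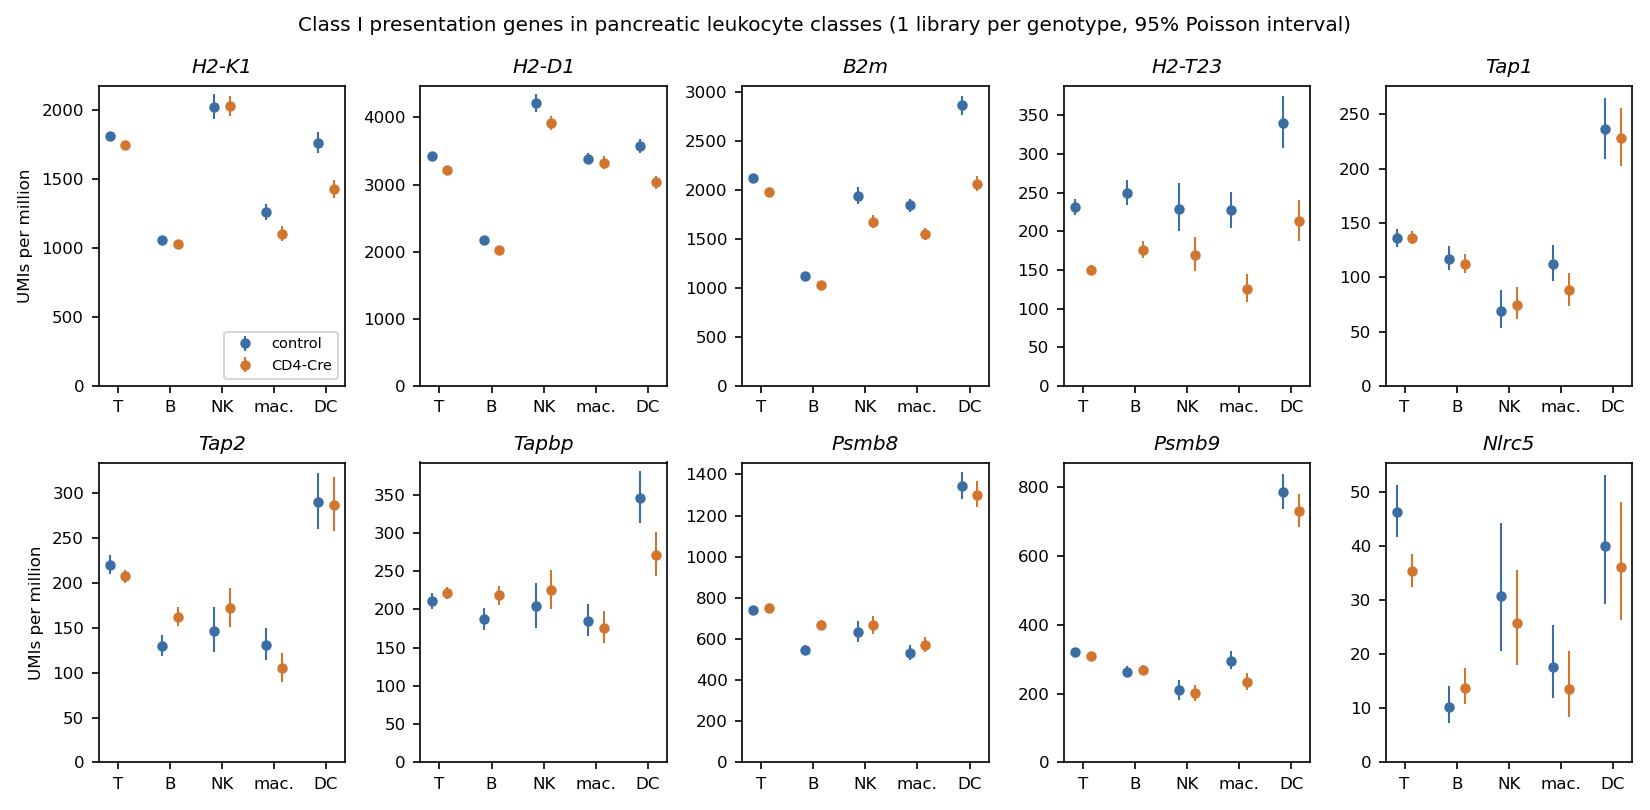
Level of each class I presentation gene in CPM (vertical axis, from 0) in T, B, NK, macrophage (mac.) and dendritic (DC) barcodes of the pancreas. Points are single libraries, blue for control and orange for CD4-Cre, with 95% Poisson intervals. Dendritic cells were highest for B2m, H2-T23, Tap1, Tap2, Tapbp, Psmb8 and Psmb9 in both libraries, and NK cells for H2-K1 and H2-D1.

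These are shares of RNA, and the classes differed in RNA content. The median barcode of the control library held 3369 UMIs in T cells, 9105 in macrophages and 14256.5 in dendritic cells. Counted as UMIs per barcode, dendritic cells were highest for all 10 members in both libraries. A dendritic barcode of the control library held 26.0 H2-K1 UMIs, 52.5 H2-D1 UMIs and 42.2 B2m UMIs on average. A T barcode held 6.96, 13.2 and 8.16, and a macrophage 12.5, 33.5 and 18.3. Over T cells, dendritic barcodes held 3.3-fold (Nlrc5) to 9.43-fold (Psmb9) more UMIs of the members in control and 2.7-fold (H2-K1) to 7.8-fold (Psmb9) in CD4-Cre. B cells were lowest per barcode for 7 of the 10 members in each library.

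Set against T cells of the same library, the median member differed by a log2 ratio of -0.55 in B cells of control and -0.31 in those of CD4-Cre. The median over all genes with at least 200 UMIs was -0.08 and -0.01. Only Nlrc5 passed 2-fold, lower in B cells by log2 ratios of -2.17 (95% binomial interval -2.69 to -1.69) and -1.35 (-1.73 to -0.999). Among all genes tested, 9.92% and 10.0% were at least 2-fold lower. H2-T23 was the member that did not fall below T cells, at 0.11 (-0.01 to 0.23) and 0.23 (0.12 to 0.35).

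In NK cells the median was -0.17 and -0.21, against 0.14 and 0.16 for all genes. No member passed 2-fold, where 12.0% and 13.6% of genes did so either way. H2-D1 was above T cells (0.30 and 0.28) while Tap1 was below them by nearly the limit (-0.98, -1.36 to -0.62, and -0.86, -1.16 to -0.58). Psmb9 lay at -0.62 in both libraries. As a mean of both libraries the NK median was -0.19, and it was -0.41 with TMM scaling and -0.40 with DESeq2 scaling. TMM moved the median of all genes from 0.14 to -0.06 in control and from 0.16 to -0.07 in CD4-Cre. It lowered NK cells against T cells by 0.206 and 0.232 on the log2 scale. This is more than the NK lead in H2-K1, which was 1.12-fold and 1.16-fold, so that lead rests on CPM.

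Macrophages had medians of -0.24 and -0.40 against all-gene medians of -0.37 and -0.42. Nlrc5 was again the one member at least 2-fold lower, at -1.39 (-1.99 to -0.85) and -1.39 (-2.09 to -0.76), where 21.9% and 25.0% of genes were. Dendritic cells had medians of 0.49 and 0.38 against -0.27 and -0.31 for all genes. Psmb9 was the one member at least 2-fold higher, at 1.29 (1.18 to 1.40) and 1.24 (1.13 to 1.34), where 9.64% and 8.35% of genes were. Psmb8 followed at 0.86 and 0.80, and Tap1 at 0.79 and 0.74. H2-K1 and H2-D1 stayed near T cells in the control library, at -0.04 and 0.06. In CD4-Cre dendritic cells held 0.816-fold (H2-K1) and 0.943-fold (H2-D1) the T cell level, below T cells with intervals apart.

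Psmb8 and Psmb9 take the places of the constitutive subunits Psmb5 and Psmb6 in the assembled proteasome, and Psmb10 takes that of Psmb7, so the ratio of each pair describes the make-up of the RNA for the catalytic sites. Psmb9 to Psmb6 was 1.9 (1.78 to 2.03) in T cells, 1.66 (1.5 to 1.85) in B cells, 1.09 (0.89 to 1.35) in NK cells, 1.88 (1.62 to 2.2) in macrophages and 4.17 (3.6 to 4.85) in dendritic cells of the control library. In CD4-Cre the same ratio was 1.74, 1.61, 0.873, 1.42 and 3.9. Among these classes NK cells were thus lowest and dendritic cells highest in both libraries, with intervals apart from all the others listed. Psmb8 to Psmb5 was 5.95 (5.22 to 6.8) in dendritic cells and between 3.24 and 4.07 in the other 4 classes of control. Psmb10 to Psmb7 went the other way, with 2.66 (2.16 to 3.3) in dendritic cells against 3.37 to 4.0 in the others, where only the intervals of B and dendritic cells did not overlap. In CD4-Cre it was 2.36 (1.91 to 2.93) in dendritic cells against 3.46 to 4.43 in the others, with intervals apart from all of them.

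Among dendritic subsets of the control library, Psmb9 to Psmb6 was 4.95 (4.03 to 6.13) in cDC1, the subset known for cross-presentation on class I, 4.6 (3.73 to 5.71) in Ccr7-high cells and 2.98 (2.08 to 4.33) in cDC2. The values in CD4-Cre were 4.7, 3.99 and 1.82. Psmb10 to Psmb7 was 1.99, 3.29 and 7.25 (3.45 to 17.6) in control in the same order, the last on 58 and 8 UMIs. In CD4-Cre it was 2.42, 2.53 and 2.0. Barcodes called cDC1 held a UMI of Xcr1 or Clec9a and none of Cd209a, and those called cDC2 the reverse. Ccr7-high is a name for barcodes with a UMI of Ccl22 or Fscn1, and Ccr7 itself was not part of that rule. The subsets comprised 17 to 40 barcodes per library, and Ccr7-high cells can also belong to either of the others. As a level, Tap1 was 293 (250 to 342) in cDC1 and 149 (107 to 203) in cDC2 of control, and 290 and 79.1 in CD4-Cre. Psmb9 was 978 (898 to 1063) in cDC1 and 456 (379 to 543) in cDC2 of control, and 939 and 269 in CD4-Cre. The intervals of cDC1 and cDC2 did not overlap for either gene in either library.

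**Figure D2:**
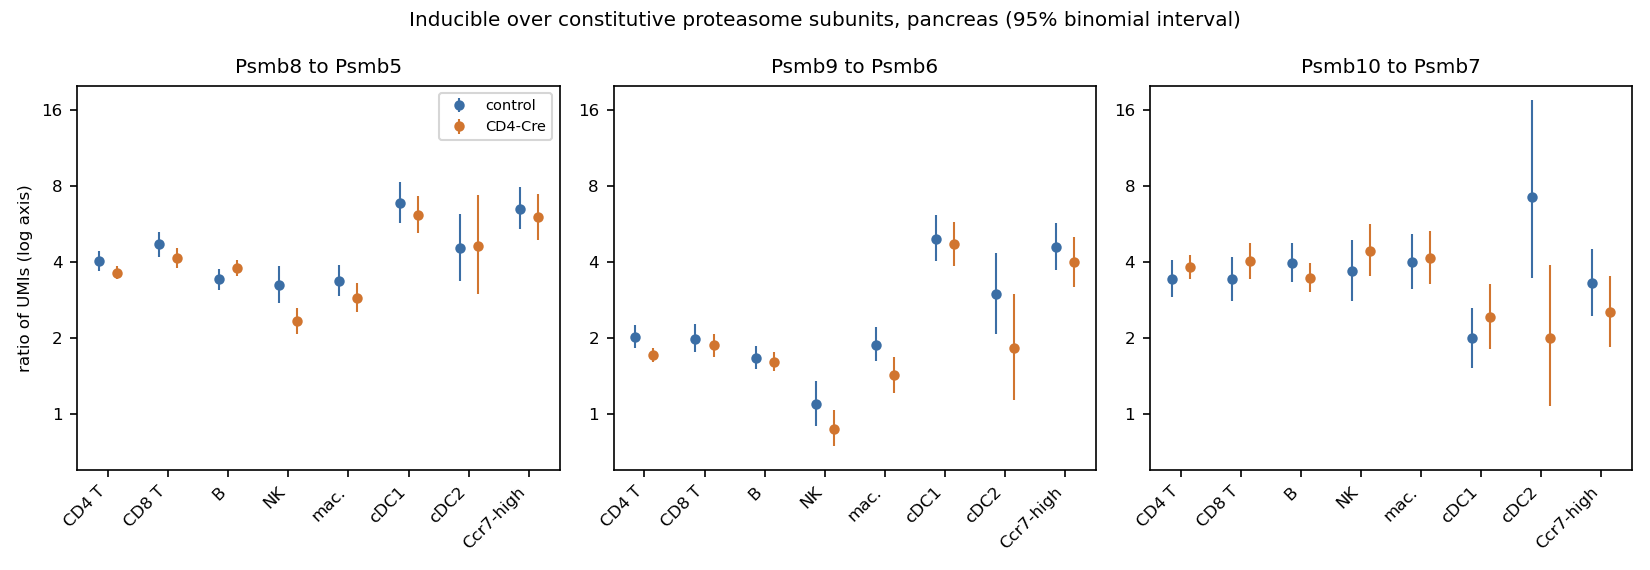
Ratio of UMIs of each inducible proteasome subunit to the constitutive subunit whose place it takes (vertical axis, log scale) in pancreas classes. Points are single libraries, blue for control and orange for CD4-Cre, with 95% binomial intervals. Psmb9 to Psmb6 lay at 4.95 and 4.7 in cDC1 and at 1.09 and 0.873 in NK cells, and Psmb10 to Psmb7 did not share this order.

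The lymph node control library, though selected for CD3, held 43 B and 40 dendritic barcodes. Of the dendritic barcodes, 87.5% were Ccr7-high and their median was 2331 UMIs. Their shares of class I RNA were above those of every pancreas class, with H2-K1 at 3100 (2793 to 3430), H2-D1 at 6655 (6203 to 7132), B2m at 5561 (5148 to 5998) and Psmb9 at 1276 (1083 to 1495). Lymph node T cells of the same library held 1519, 3065, 1479 and 287. Ptprc, the gene of the CD45 antigen, was found in 22.5% of these dendritic barcodes and in 92.5% of pancreas dendritic barcodes. Tissue, age, selection and depth differ together here and cannot be told apart. The 7 dendritic barcodes of lymph node CD4-Cre had H2-K1 at 3771 (2985 to 4699).

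Exocrine barcodes, in which at least 20% of UMIs came from pancreatic enzyme genes, numbered 15 in control and 19 in CD4-Cre, with medians of 646 and 793 UMIs. They were taken from all listed barcodes, without the limits on genes and mitochondrial UMIs. They held 5 UMIs of the 10 members in all, or 174 CPM (56.5 to 406). Of these, 1 UMI each of H2-K1, B2m and Tap2 was in control and 1 each of Psmb8 and Psmb9 in CD4-Cre. H2-D1 was at 0 in both, where 3 counts, the limit that a count of 0 allows, would be 237 and 187 CPM. With exocrine enzyme genes left out of the total, the members came to 659 CPM. Class I RNA in acinar cells was not measurable at this depth, and free RNA in the droplets was not separated from it.

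The comparison of CD4-Cre with control asks whether class I presentation changes when T cells lose Pou2af1. H2-T23 was lower in every class, and which other members were lower varied with the class. In pancreas CD4 T cells the median member had a log2 ratio of -0.04, against 0.05 for all genes. The limit for naming a gene lower or higher was a log2 ratio of 0.322 either way with at least 200 UMIs over both libraries. One member, H2-T23, was lower past the limit and none was higher, where 5.47% of genes were lower and 7.76% higher. H2-K1 stood at 1771 CPM in control and 1747 in CD4-Cre, or -0.02 (-0.06 to 0.03) on the log2 scale. H2-D1 had -0.06, B2m -0.10, Tap1 -0.01, Tap2 0.04, Tapbp 0.06, Psmb8 0.06, Psmb9 -0.06 and Nlrc5 -0.30 (-0.62 to 0.03).

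Pancreas CD8 T cells had a median of -0.16 against -0.02 for all genes. H2-T23 and Nlrc5 were lower past the limit, where 9.65% of genes were, and none was higher, where 7.16% were. Nlrc5 fell from 73.9 (62.2 to 87.2) to 51.7 (43.9 to 60.5) CPM, a log2 ratio of -0.52 (-0.85 to -0.18). H2-D1 stood at 3692 and 3174, a log2 ratio of -0.22 (-0.26 to -0.17), and H2-K1 at 2023 and 1823, or -0.15 (-0.21 to -0.09). With each barcode thinned to 1000 UMIs, Nlrc5 came to -0.23. The median was -0.11 with TMM scaling and -0.09 with exocrine, mitochondrial, ribosomal protein and antigen receptor genes left out of the total. Exocrine enzyme genes summed to 227 CPM in these cells of control (24 of 27 genes detected, Prss1, Prss3 and Amy2a5 at 0) and to 5536 CPM in those of CD4-Cre (25 of 27, Prss1 and Prss3 at 0), and their part in the result was not tested.

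The make-up of CD8 T cells also differed between the pancreas libraries. Barcodes with at least 2 UMIs of Ccl5, a chemokine gene of effector and memory CD8 T cells, made up 68.8% of CD8 T cells in control and 43.9% in CD4-Cre. Those with none made up 28.5% and 53.3%. This split was chosen after the values were seen. In control, H2-K1 stood at 2179 (2101 to 2259) in the Ccl5 cells and 1590 (1482 to 1704) in the others, and H2-D1 at 4069 and 2758. In CD4-Cre these were 2065 and 1587 for H2-K1 and 3610 and 2784 for H2-D1.

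Class I RNA was thus higher in Ccl5 cells of both pancreas libraries, by 0.45 (0.34 to 0.57) and 0.38 (0.30 to 0.46) on the log2 scale for H2-K1. The intervals lay above 0 for 7 of the 10 members in control and 8 in CD4-Cre, and Tapbp lay below 0 in CD4-Cre at -0.28 (-0.52 to -0.05). Between genotypes, the median member differed by -0.04 among CD8 T cells without Ccl5 and by -0.09 among those with it. H2-K1 differed by -0.00 (-0.12 to 0.11) and -0.08 (-0.15 to -0.00), and H2-D1 by 0.01 (-0.07 to 0.10) and -0.17 (-0.23 to -0.12). H2-T23 kept a lower level in CD4-Cre in both, at -0.48 (-0.84 to -0.12) and -0.53 (-0.76 to -0.30). In the lymph node, where 3.28% and 4.31% of CD8 T cells held at least 2 Ccl5 UMIs, H2-K1 in the cells without Ccl5 was 1516 in control and 1624 in CD4-Cre. There the Ccl5 cells, 24 and 68 barcodes, differed from those without by a median of 0.04 in control and -0.01 in CD4-Cre. H2-K1 had 0.02 (-0.17 to 0.21) and 0.06 (-0.05 to 0.16). Intervals lay above 0 for 1 member in control and below 0 for 2 in CD4-Cre.

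**Figure D3:**
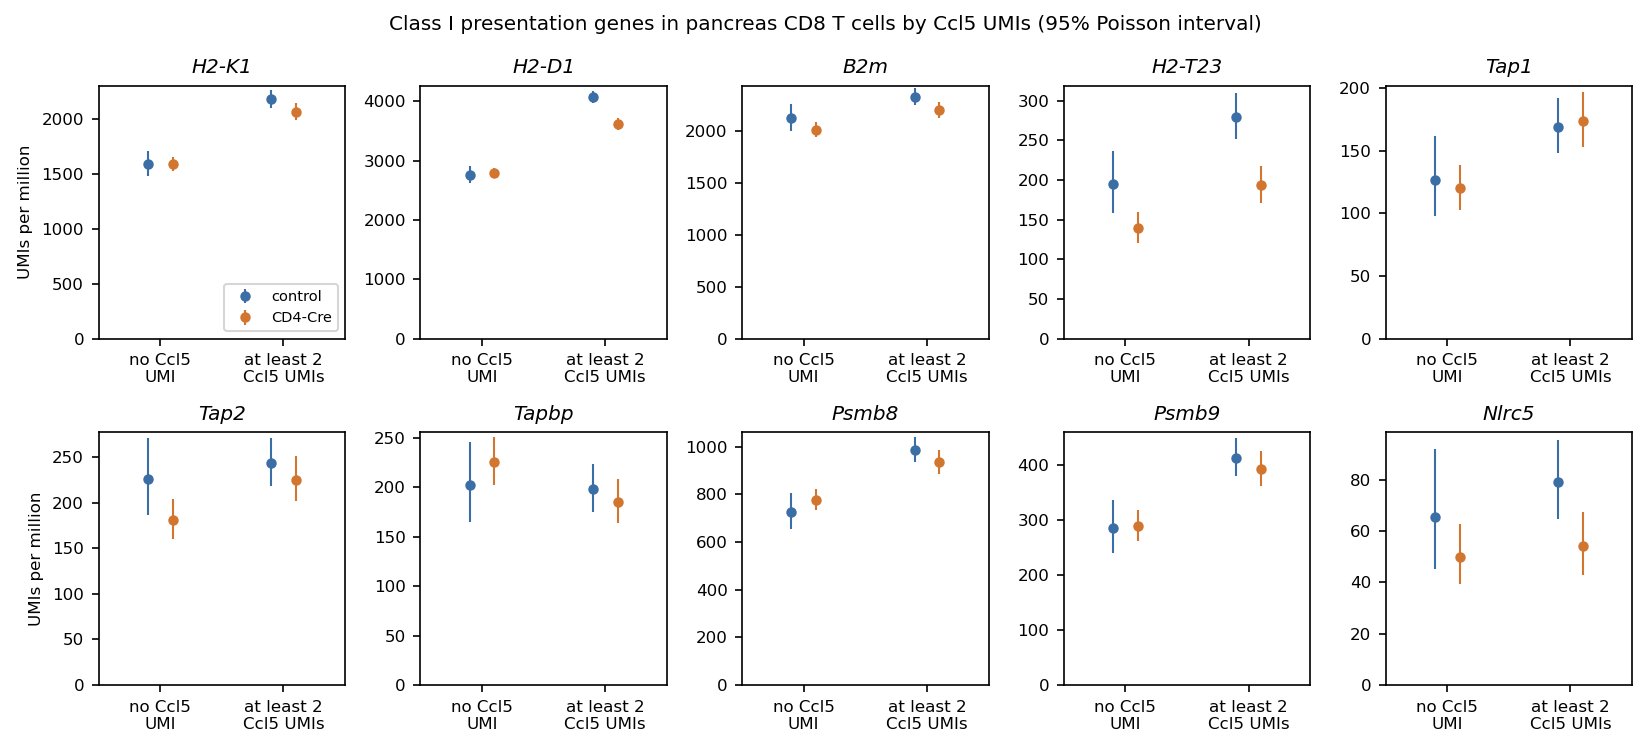
Level of each class I presentation gene in CPM (vertical axis, from 0) in pancreas CD8 T barcodes with no Ccl5 UMI and with at least 2. Blue points are the control library and orange points the CD4-Cre library, with 95% Poisson intervals. H2-K1 lay at 1590 and 1587 without Ccl5 and at 2179 and 2065 with it, whereas H2-T23 was lower in CD4-Cre in both sets.

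In pancreas B cells, which do not use the Cd4 promoter, the median was -0.00 against 0.08 for all genes. H2-T23 was the one member lower past the limit, where 3.40% of genes were. None with at least 200 UMIs was higher, where 10.4% of genes were. Tap2 came closest, with 130 (119 to 142) and 163 (152 to 174) CPM, or 0.321 (0.158 to 0.485). Psmb8 had 0.30 (0.22 to 0.38) and Tapbp 0.22 (0.09 to 0.36), while H2-K1 had -0.04, H2-D1 -0.11 and B2m -0.13. NK cells had a median of -0.03 against 0.04. H2-T23 was the one member lower past the limit, where 6.70% of genes were, and none was higher, where 9.56% were. H2-K1 stood at 2025 and 2026, H2-D1 had -0.11 (-0.17 to -0.05) and B2m -0.21 (-0.30 to -0.12).

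Macrophages had a median of -0.29 against 0.02 for all genes. H2-T23, Tap1, Tap2 and Psmb9 were lower past the limit, where 9.97% of genes were, and none was higher, where 8.88% were. Tap1 went from 113 to 88.2 CPM (-0.35, -0.68 to -0.03), Tap2 from 131 to 105 (-0.33, -0.63 to -0.03) and Psmb9 from 296 to 234 (-0.34, -0.54 to -0.14). Under the 11 alternatives of the closing section, with enough UMIs required, Tap1 was past the limit in 5, Tap2 in 3 and Psmb9 in 4. H2-D1 differed by -0.03 and Psmb8 by 0.10. Among barcodes with no marker of another class, of which 50 and 60 remained from 166 and 150, the median was 0.05 and no member was past the limit. The macrophage marker genes themselves summed to 11764 CPM in control and 8400 in CD4-Cre, all 6 being detected in both, and their part in the result was not tested.

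Dendritic cells had a median of -0.19 against 0.00 for all genes. B2m, H2-T23 and Tapbp were lower past the limit, where 11.7% of genes were, and none was higher, where 8.39% were. B2m went from 2869 to 2068 CPM (-0.47, -0.55 to -0.40) and Tapbp from 346 to 271 (-0.35, -0.56 to -0.14). H2-K1 had -0.31 (-0.40 to -0.21) and H2-D1 -0.23 (-0.30 to -0.17), while Tap1 (-0.05), Tap2 (-0.02), Psmb8 (-0.05) and Psmb9 (-0.10) had intervals across 0. With each barcode thinned to 1000 UMIs, B2m came to -0.02. The median UMI count per dendritic barcode was 14256.5 in control and 11355 in CD4-Cre, and cDC2 made up 30% and 17.7% of the class.

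In cDC1 (30 and 38 barcodes) H2-K1 had -0.48 (-0.62 to -0.34), H2-D1 -0.53 (-0.62 to -0.43), B2m -0.86 (-0.97 to -0.74) and H2-T23 -0.67 (-1.03 to -0.31), all lower past the limit, where 14.3% of genes were, and none was higher, where 17.8% were. Tapbp had -0.31 (-0.60 to -0.01). Tap1 (-0.01), Tap2 (-0.12), Psmb8 (0.01) and Psmb9 (-0.06) had intervals across 0. In Ccr7-high cells (38 and 40 barcodes) B2m had -0.41, H2-T23 -0.70 and Tapbp -0.50, where 13.5% of genes were lower past the limit, and none was higher, where 11.4% were. In cDC2 (24 and 17 barcodes) only 4 members had enough UMIs, of which H2-K1 (-0.61), B2m (-0.75) and Psmb8 (-0.52) were lower past the limit, where 10.2% of genes were, and none was higher, where 13.4% were. Dendritic marker genes summed to 1675 and 1726 CPM over the whole class, and macrophage markers to 51.8 and 44, with C1qb and C1qc at 0 in both.

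In the lymph node, CD4 T cells had a median of 0.06 against -0.07 for all genes. H2-T23 was the one member lower past the limit, where 10.4% of genes were, and none was higher, where 1.39% were. H2-K1 stood at 1517 (1487 to 1548) and 1762 (1739 to 1785) CPM, or 0.22 (0.18 to 0.25), and B2m at 1421 and 1596, or 0.17 (0.13 to 0.20). H2-D1 differed by 0.04. CD8 T cells had a median of -0.02 against -0.09, or 0.09 with TMM or DESeq2 scaling. TMM moved the median of all genes from -0.09 to 0.03. H2-T23 and Nlrc5 were lower past the limit, where 12.3% of genes were, and none was higher, where 1.26% were. Nlrc5 went from 41.9 (36.0 to 48.6) to 30.6 (27.1 to 34.5), a log2 ratio of -0.45 (-0.73 to -0.17). H2-K1 had 0.11 and B2m 0.13.

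**Figure D4:**
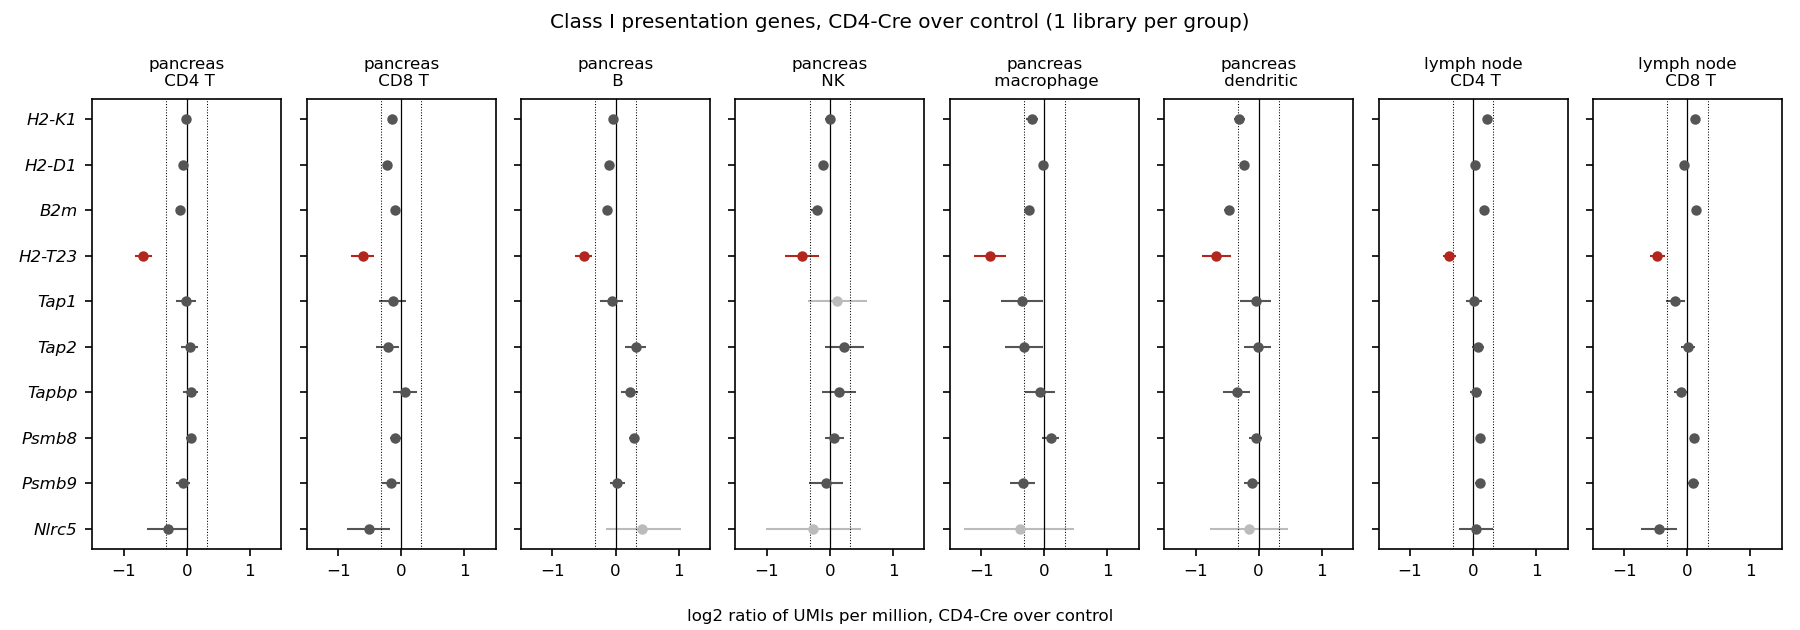
Log2 ratio of CPM in CD4-Cre over control (horizontal axis) for each class I presentation gene (rows) in 6 pancreas and 2 lymph node classes. Points are ratios of single libraries with 95% binomial intervals, dotted lines mark the limit of 0.322, H2-T23 is in red, and members under 200 UMIs over both libraries are in light grey. H2-T23 lay left of the dotted line in all 8 panels, from -0.85 to -0.37, and no other member with enough UMIs did so in more than 2.

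H2-T23 was lower in CD4-Cre in all 8 comparisons. In pancreas CD4 T cells it stood at 233 CPM (217 to 249) in the control library against 144 (136 to 153), or -0.69 (-0.82 to -0.56). In CD8 T cells the levels were 254 (232 to 278) and 166 (152 to 182), or -0.61 (-0.79 to -0.43). In B cells they were 250 (234 to 267) and 176 (165 to 188), or -0.51 (-0.64 to -0.37).

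NK cells held 229 (200 to 262) and 169 (148 to 192), a log2 ratio of -0.44 (-0.71 to -0.17). Macrophages held 227 (204 to 251) and 126 (109 to 144), or -0.85 (-1.11 to -0.60), and dendritic cells 340 (307 to 375) and 213 (188 to 240), or -0.68 (-0.90 to -0.45). In lymph node CD4 T cells the levels were 206 (195 to 218) and 159 (152 to 166), or -0.37 (-0.47 to -0.27), and in lymph node CD8 T cells 212 (198 to 226) and 152 (144 to 160), or -0.48 (-0.60 to -0.36). The intervals of the 2 genotypes were apart in each of these classes. Its level was thus lower in B and NK cells of the pancreas as well as in T cells.

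The 8 comparisons rest on 2 pairs of libraries, since the classes of a library share its mice and its preparation. Of 1080 genes with at least 200 UMIs in all 8, 3 (0.278%) were lower past the limit in every one, namely H2-T23, Lars2 and Gm11808, and 1 (0.0926%), mt-Atp8, was higher in every one. This count was made in CPM. With TMM scaling H2-T23 in lymph node CD4 T cells was short of the limit, at -0.28 (-0.38 to -0.18). Under the alternatives listed in the closing section the ratio of H2-T23 stayed below 0 in every class. It was nearest to 0 in NK cells and macrophages thinned to 1000 UMIs (-0.10 and -0.26) and in macrophages with no marker of another class (-0.24).

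H2-T23 belongs to a family of similar genes, so reads can be shared between them. In GENCODE M21 transcripts, 28.8% of its 50-base stretches also occur in another gene, chiefly in H2-T-ps (12.9%), H2-Q1 (7.87%) and Gm7030 (7.8%). The share was 13.9% for H2-D1, 6.87% for H2-K1 and 0 for B2m, Psmb8, Psmb9 and Nlrc5. How reads that match several genes were assigned is not given in the sources used here, and class I genes differ between strains, so the levels of H2-K1, H2-D1 and H2-T23 carry that uncertainty. Whether it differs between the libraries was not tested.

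Genes near H2-T23 were then read in the same 8 comparisons, a choice made after its values were seen. Of 24 other genes that start within 500 kb and had at least 200 UMIs in 1 or more comparisons, 14 could be read in at least 4. One of them, Gm11127, a class I-like gene that starts 26.0 kb from H2-T23, was lower past the limit in 4 or more. It had -0.75 (-0.98 to -0.52) in pancreas CD4 T cells, -0.68 in CD8 T cells, -0.52 in B cells and -0.55 in macrophages, and 0.05 and -0.05 in lymph node CD4 and CD8 T cells. H2-T22, which starts 7.36 kb from H2-T23, ranged from -0.29 to 0.06 in 6 comparisons and was past the limit in none. Ppp1r18 and Tubb5, the 2 genes read in all 8, were lower past it in none, and Tubb5 was higher in 3.

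**Figure D5:**
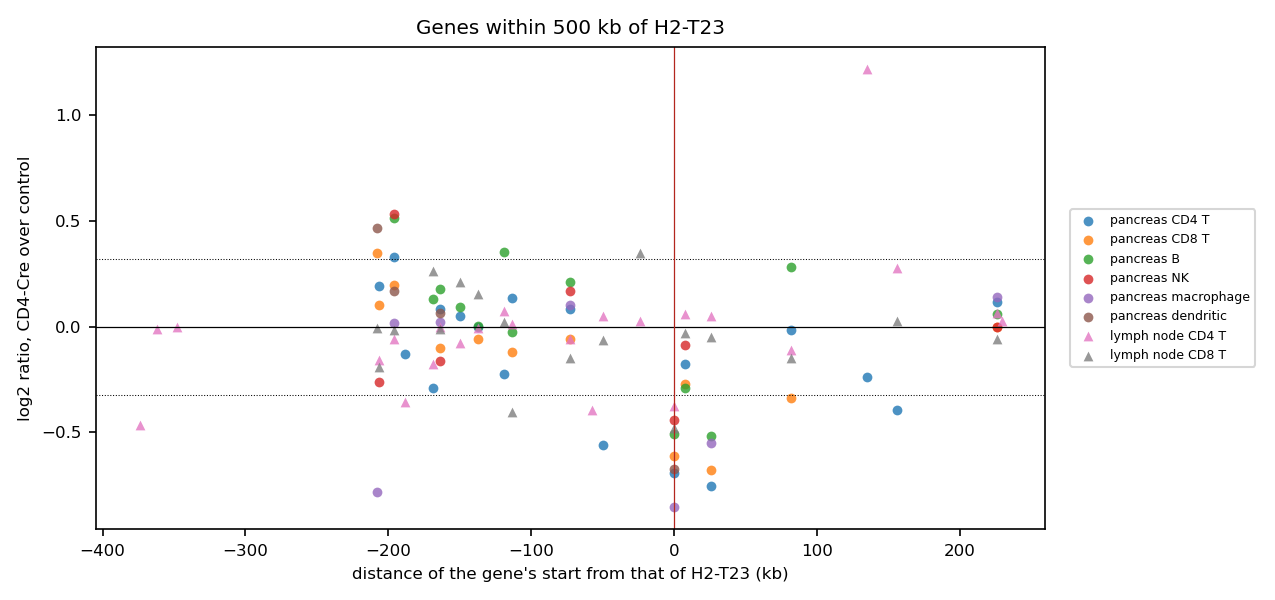
Log2 ratio of CPM in CD4-Cre over control (vertical axis) against the distance of each gene's start from that of H2-T23 in kb (horizontal axis). Each point is 1 gene in 1 comparison with at least 200 UMIs, circles for pancreas and triangles for lymph node, and dotted lines mark the limit of 0.322. The points at 0 kb are H2-T23, and those at 26.0 kb are Gm11127, which lay at 0.05 and -0.05 in the lymph node.

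The receptor that reads Qa-1 was followed with the other genes of the pathway, from a list of 72 genes of which 70 are in the matrices. In pancreas CD8 T cells, 47 had at least 200 UMIs, of which 5 were higher past the limit and 5 lower, where 7.16% of all genes were higher and 9.65% lower. Klrc1, an inhibitory receptor for Qa-1, had -0.64 (-0.85 to -0.43) and Ifng, the interferon that induces these genes, had -0.64 (-0.93 to -0.34). Among the highest were Gbp2 at 1.06 (0.73 to 1.40) and Igtp at 0.49, both known as interferon-induced. Isg15, also interferon-induced, had -0.60 (-0.92 to -0.28), so that genes of this kind lay on both sides of 0.

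In pancreas CD4 T cells 3 of 52 pathway genes were higher and 6 lower, beside 7.76% and 5.47% of all genes. Ifng had -0.88 (-1.20 to -0.55), Irf8 -1.19 (-1.58 to -0.81) and Irf1, a transcription factor acting on class I promoters, 0.35 (0.20 to 0.50). In B cells 3 of 51 were higher and 2 lower, beside 10.4% and 3.40% of all genes, and Igtp at 0.48 (0.16 to 0.80) and Psmb7 at 0.38 (0.09 to 0.66) were among the highest. In NK cells 6 of 33 were higher and 6 lower, beside 9.56% and 6.70% of all genes. Klra1 at -0.88 (-1.05 to -0.71) and Klra7 at -0.53, both receptors of class I, were among the lowest.

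Macrophages had 1 of 35 pathway genes higher and 9 lower, beside 8.88% and 9.97% of all genes, and this count was not recomputed among the barcodes with no marker of another class, where no member stayed past the limit. H2-M2, a nonclassical heavy chain, had -1.79 (-2.07 to -1.51) and Fcgrt, a class I-like antibody receptor, -1.03 (-1.26 to -0.80). Of the other class I heavy chains alone, 5 of 8 were lower and none higher. Dendritic cells had 3 of 34 higher and 5 lower, beside 8.39% and 11.7% of all genes, with Isg15 at 1.21 (0.86 to 1.56) and H2-Q7 at -0.58 (-0.85 to -0.31). In the lymph node 4 of 55 were higher and 3 lower in CD4 T cells, beside 1.39% and 10.4% of all genes. In CD8 T cells 5 of 54 lay past the limit each way, beside 1.26% and 12.3%. Ifit3 had 1.34 (0.88 to 1.82) and 0.69 (0.31 to 1.08), Isg15 0.57 and 0.38, and H2-Q1 0.55 in CD4 T cells.

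Across the 16 points formed by classes and libraries, the levels of several members went together. Tap1 and Psmb9, neighbours on opposite strands, had a Pearson r of 0.945, Tap2 and Psmb8 0.892, and Psmb8 and Psmb9 0.880. Tapbp had 0.822 with Tap2 and 0.814 with Psmb8, and Nlrc5 had 0.756 with B2m and 0.745 with Tap2. H2-K1 had 0.801 with Nlrc5 and 0.766 with H2-D1, but 0.043 with Tap1 and 0.098 with Psmb9. These r values are descriptions, since the points share libraries and differ in depth. Of 1935 other genes, those most like the mean of the members were Traf1 (0.920), Psme2 (0.836), Zbtb8os (0.822) and Psme1 (0.794), followed by Mdh2, Tomm7, Atp6v1d, Tbca, H2-Q4 and Fam96b (0.793 to 0.760). Psme1 and Psme2 encode the proteasome activator that interferon induces.

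Within a class, single barcodes varied widely. Thinned to 1000 UMIs, a T barcode of pancreas control held a median of 9 UMIs of the 10 members, with a 10th to 90th percentile range of 4 to 15, and 2 of 2070 held none. B barcodes had a median of 6 and NK barcodes 9. Dendritic barcodes had a median of 10 with a range of 4.9 to 20.1 in pancreas control, and 17.5 with a range of 7 to 37.3 in lymph node control. The variance over the mean was 2.16 in T cells, 1.53 in B cells and 3.9 in dendritic cells of pancreas control. Correlations between members within a class were weak at this depth (median r 0.014 to 0.101 in the classes with at least 200 barcodes).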

How the data were processed

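Single-cell RNA was measured in 4 libraries, 1 per group. The authors deposited UMI counts per gene and barcode, whole numbers with no normalization. The submitters' processing notes name Cell Ranger and mm10, and the file headers give software version 3.0.0. The aligner's settings and read assignment are not given in the sources used here. Barcodes were kept with at least 500 genes and at most 10% mitochondrial UMIs. Exocrine barcodes were instead taken from all listed barcodes, by their share of exocrine UMIs and with fewer than 2 markers of every other class. Each leukocyte class needed UMIs of at least 2 of its markers, more than of any other class, and at most 1 of each other class, which also served as the treatment of doublets. Total UMIs per library are 14851217 to 32798133. Counts were summed per class and library and given as CPM (UMIs per 1000000 UMIs of that class), with exact Poisson 95% intervals. Log2 ratios have exact conditional binomial 95% intervals (scipy 1.17.1). A gene counted as past the limit at a log2 ratio of 0.322 between genotypes or 2-fold between classes, with at least 200 UMIs over both sums. There is no edgeR or DESeq2 test, since a group has 1 library. TMM factors (edgeR 4.0.16) and DESeq2 1.42.0 size factors served as scaling alternatives, with other barcode filters, gates, weights, totals, thinning and a pseudocount of 1. The ratio script was tested on simulated data. All 10 members were named in every comparison, with the 3 highest and 3 lowest pathway genes available for naming, and the 10 genes most like the members. Members, markers and lists were chosen with earlier results of these data known. Neutrophil and plasma barcodes and those in no class were left out of the comparisons. One pathway gene is not reported here.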

Additional observations from a re-analysis of the deposited data

Results flagged for a closer look

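In T cells several members differed in sign between the 2 tissues when CD4-Cre was set over control, with intervals on opposite sides of 0, and the difference between tissues was not tested. In CD4 T cells H2-D1 had a log2 ratio of -0.06 in the pancreas and 0.04 in the lymph node, and B2m had -0.10 and 0.17. In CD8 T cells H2-K1 had -0.15 in the pancreas and 0.11 in the lymph node, B2m had -0.10 and 0.13, and Psmb8 had -0.09 and 0.10. Each value is from 1 pair of libraries, and tissue, age and selection differ together and cannot be told apart. With TMM scaling the pancreas CD8 ratios of B2m, at -0.05 (-0.11 to 0.00), and Psmb8, at -0.04 (-0.13 to 0.05), no longer had intervals below 0, so these opposite signs depend on the scaling. The lymph node CD8 median of the members moved from -0.02 to 0.09 with TMM.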

How the results depend on the processing

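No paired analysis was possible because each group has 1 library. Of 149 medians recomputed under the alternatives, 137 moved by less than their interval. Of 1340 values of single members 1159 did so, 178 moved and 3 were marked as reversed. The 3 do not include every change of sign. In lymph node CD8 T cells, TMM scaling brought H2-D1 from below 0 to 0.06 (0.03 to 0.09), and the median from -0.02 to 0.09. For CD4-Cre over control, the macrophage median changed sign to 0.05 with no marker of another class allowed, where Psmb9 had 0.16 and Nlrc5 0.63, and Nlrc5 had 0.74 when thinned to 1000 UMIs. The dendritic median was -0.39 with at least 3 class markers, and the lymph node CD8 median was 0.09 with TMM and 0.09 with DESeq2 scaling. Against T cells, as means over both pancreas libraries (-0.19 for NK cells, -0.35 for macrophages and 0.47 for dendritic cells), the NK median was -0.41 (TMM), -0.40 (DESeq2) and -0.44 with exocrine, mitochondrial, ribosomal protein and antigen receptor genes (the set-aside genes) left out of the total, the macrophage median -0.18 (DESeq2) and -0.66 (set-aside genes), and the dendritic median 0.66 (no marker of another class) and 0.22 (set-aside genes). The exocrine level was 659 CPM with exocrine genes out of the total. In all of these the cause was not tested. The number of members past the limit ranged from 0 to 4 in macrophages and from 0 to 5 in dendritic cells. H2-T23, with at least 200 UMIs required, was past the limit in all 11 alternatives in pancreas CD4 T and B cells and in lymph node CD8 T cells, in 13 of 13 in pancreas CD8 T cells, in 10 of 11 in NK and in dendritic cells, 9 of 11 in macrophages and 8 of 11 in lymph node CD4 T cells. In lymph node CD4 T cells H2-T23 was short of the limit with TMM scaling (-0.28), and no member was past it there with DESeq2 scaling. Small classes limit the macrophage and dendritic values. Depth limits Nlrc5, also in T cells. Over the alternatives its CD8 T ratio ranged from -0.67 to -0.23 in the pancreas and from -0.96 to -0.34 in the lymph node.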

Other observations

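Neutrophils, which were outside the classes compared above, stood apart in the make-up of their class I RNA. The 140 neutrophil barcodes of pancreas control held H2-D1 at 3738 CPM (3559 to 3923) and H2-K1 at 228 (186 to 278), and the 75 of CD4-Cre held 3799 (3512 to 4103) and 217 (153 to 300). The ratio of H2-K1 to H2-D1 was 0.0611 in control and 0.0572 (0.0399 to 0.0797) in CD4-Cre, against 0.528 and 0.543 in T cells. H2-T23 was 66.2 (44.4 to 95.1) and Psmb8 137 (105 to 176) in control neutrophils, both below every other leukocyte class of that library. These barcodes held a median of 2342 and 2043 UMIs, and this class was singled out after its values were seen.

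The 30 promoter windows that hold TGACG and ATTGG at the class I spacing include that of H2-M3, another class I heavy chain on chromosome 17, besides H2-K1, H2-D1 and B2m.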
